A study of Mus musculus with 18 samples.

Results

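The tumour necrosis factor (TNF) superfamily ligands followed here are 9 genes, Lta, Ltb, Tnf, Tnfsf8, Tnfsf10, Tnfsf11, Tnfsf14, Tnfsf4 and Cd40lg, chosen by name from a count table of 50600 mouse genes. Their transcripts were read in regulatory T cells (Tregs), the Foxp3-expressing CD4+ T cells that restrain immune responses, sorted from C57BL/6 mice with or without CD25. CD25, encoded by Il2ra, is the α chain that gives the interleukin-2 (IL-2) receptor its high affinity. The comparison asks which ligand transcripts depend on that receptor, in the thymus and in the spleen. All 18 libraries are bulk RNA-seq of sorted cells, 1 mouse each.

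Thymic Tregs came from 5 Foxp3/RFP reporter mice, the WT group, and from 5 CD25flox/Foxp3-YFP/Cre mice, the CD25 KO group, at 3 to 4 weeks of age. In these KO mice the Foxp3 locus drives Cre from the time a cell turns on Foxp3, and the mice had been "cured" of autoimmunity by injecting WT splenocytes intravenously soon after birth, so that donor Tregs also live in them. Splenic Tregs came from 4 reporter control mice and 4 CD25flox/Foxp3eGFP-Cre-ERT2/R26Y mice. Both splenic groups received tamoxifen, begun at 7 to 10 weeks of age, and were harvested 10 to 14 days later, so that these cells lost CD25 as mature cells and only where tamoxifen had switched on Cre. The thymic WT and KO mice carry different Foxp3 reporter alleles, and the splenocyte transfer is described for the KO mice only. In the thymus neither can be told apart from the loss of CD25. Per the paper, cells were sorted by reporter and surface markers. Tissue, KO model with its splenocyte transfer, age and tamoxifen change together between thymus and spleen. So does the date in the column headers, whose meaning is not stated, and none of these can be told apart.

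Thymic libraries held 17239774 to 23993674 gene counts and splenic libraries 25258341 to 32639570. Levels are given as CPM, gene counts scaled to a total of 1000000 per library with TMM factors over all 18 libraries. A count of 3, taken as the floor, equals at most 0.163 CPM in a thymic library and 0.128 CPM in a splenic one. Il2ra, the targeted gene, lay at 524 to 682 CPM in thymic WT mice and at 105, 280, 96.1, 234 and 95.8 CPM in KO mice 1 to 5. In the spleen Il2ra was 488 to 538 CPM in WT mice and 168 to 208 CPM in KO mice. The recombined allele loses an exon only, so reads from the other exons still count, and thymic KO mice 2 and 4 kept the most. Foxp3, which defines the cells, was present in every library at 204 CPM or more in the spleen and 270 CPM or more in the thymus. Its level fell in KO mice of both tissues, while other Treg markers went both ways in the spleen, as given below.

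TNF superfamily ligands are mostly trimers on the cell surface that can be cut free, and they act on receptors of the TNF receptor superfamily, which signal through TRAF adaptors to NF-kB or through death domains to apoptosis. Lymphotoxin α (Lta) is secreted as a homotrimer that binds the TNF receptors, or joins lymphotoxin β (Ltb) in a membrane heterotrimer that binds the lymphotoxin β receptor. That receptor directs the formation of lymph nodes and, in the thymus, the maturation of medullary epithelium, as do RANK ligand (Tnfsf11) and CD40 ligand (Cd40lg). Tnf is the founding inflammatory cytokine of the family. Tnfsf8 encodes CD30 ligand, Tnfsf10 the apoptosis-inducing ligand TRAIL, Tnfsf14 the ligand LIGHT, and Tnfsf4 the costimulatory OX40 ligand.

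The genes Ltb, Tnf and Lta lie side by side in the class III region of the major histocompatibility complex. In GRCm38 with GENCODE annotation, Ltb spans chr17:35194439-35196320 on the plus strand, Tnf chr17:35199381-35202007 and Lta chr17:35203165-35205351, both on the minus strand. Ltb and Tnf converge, with 3060 bases between their ends, and 1157 bases separate the start of Tnf from the end of Lta. The miRNA gene Mir6973a starts inside Ltb, on the same strand. The remaining genes are scattered: Tnfsf14 at chr17:57189492-57194177 (minus), Tnfsf4 at chr1:161395409-161418410 (plus), Tnfsf10 at chr3:27317028-27342427 (plus), Tnfsf8 at chr4:63831308-63861347 (minus), Tnfsf11 at chr14:78277445-78308043 (minus) and Cd40lg at chrX:57212143-57224042 (plus).

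For the 3 neighbours, the 250 bases before the RefSeq start of each (GRCm38.p6) are shown, 5′ to 3′ on the gene's own strand. Lta is chr17:35205352-35205601 (minus), Tnf is chr17:35202008-35202257 (minus) and Ltb is chr17:35194257-35194506 (plus), where the RefSeq start lies inside the GENCODE gene. Capitals mark every match, on either strand, to 5 motifs: TTCNNNGAA, the palindrome bound by STAT5, the factor that IL-2 activates; GGNNNTTCC for NF-kB; GGAAAA, the core bound by NFAT; TGANTCA for AP-1; and TATAAA, the TATA box of core promoters.
Lta: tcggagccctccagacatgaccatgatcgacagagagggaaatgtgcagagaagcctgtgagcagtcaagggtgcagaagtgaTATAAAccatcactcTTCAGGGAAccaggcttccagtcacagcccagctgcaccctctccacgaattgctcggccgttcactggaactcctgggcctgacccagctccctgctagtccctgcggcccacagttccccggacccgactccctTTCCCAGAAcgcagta
Tnf: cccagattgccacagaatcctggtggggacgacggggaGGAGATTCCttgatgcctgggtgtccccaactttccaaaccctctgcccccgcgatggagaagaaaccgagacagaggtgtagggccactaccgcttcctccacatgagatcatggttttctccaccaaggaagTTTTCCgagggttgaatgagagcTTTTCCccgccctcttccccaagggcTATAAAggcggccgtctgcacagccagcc
Ltb: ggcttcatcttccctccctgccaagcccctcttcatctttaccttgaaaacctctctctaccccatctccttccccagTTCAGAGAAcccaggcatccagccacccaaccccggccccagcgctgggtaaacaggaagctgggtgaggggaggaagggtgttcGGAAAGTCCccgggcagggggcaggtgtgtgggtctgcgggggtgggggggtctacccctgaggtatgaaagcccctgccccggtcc
The Lta window held the STAT5 letters at 2 places, starting 152 and 16 bases before the start, and TATAAA at 167. The Ltb window held them once, at 172, with the NF-kB letters in reverse at 87. The Tnf window held no match to the STAT5 letters, and it held the NF-kB letters at 212, the NFAT core in reverse at 78 and 55, and TATAAA at 29. No matches overlapped. Of 32851 RefSeq windows of this length, 7.02% held the STAT5 letters, 15.7% the NF-kB letters, 20.4% the NFAT core, 6.75% the AP-1 letters and 12.4% TATAAA. Windows were at hand for 7 of the 9 genes. Of the other 4, Tnfsf14 held the AP-1 letters and Tnfsf11 held TATAAA in reverse, while Tnfsf8 and Tnfsf10 held none of the 5 motifs. A match describes the letters of this window and not a bound site. A relation of the matches to the fold changes was not tested.

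All 9 genes were measured above the filter on low counts in both tissues. In the thymus, with a false discovery rate (FDR) under 0.01 in edgeR's quasi-likelihood test, 3 of 9 fell in CD25 KO Tregs, namely Lta, Ltb and Tnf, where 2.99% of all genes tested fell. None rose at that threshold, where 3.17% of all genes did: 2 rose at an unadjusted p under 0.05, and DESeq2 called 1. In the spleen 2 fell, Lta and Tnf (3.55% of all genes), and 2 rose, Cd40lg and Tnfsf8 (5.9% of all genes). At an FDR under 0.05 the thymic count was 5 lower (10.9% of all genes) and 2 higher (12.3%), and the splenic count 2 lower (7.03%) and 3 higher (10.2%). The median log2 fold change of the 9 was -0.30 for thymic and 0.22 for splenic Tregs, beside -0.002 and -0.006 over all genes tested. In bulk libraries, fewer cells that express a gene and less RNA per cell cannot be told apart.

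**Figure D1:**
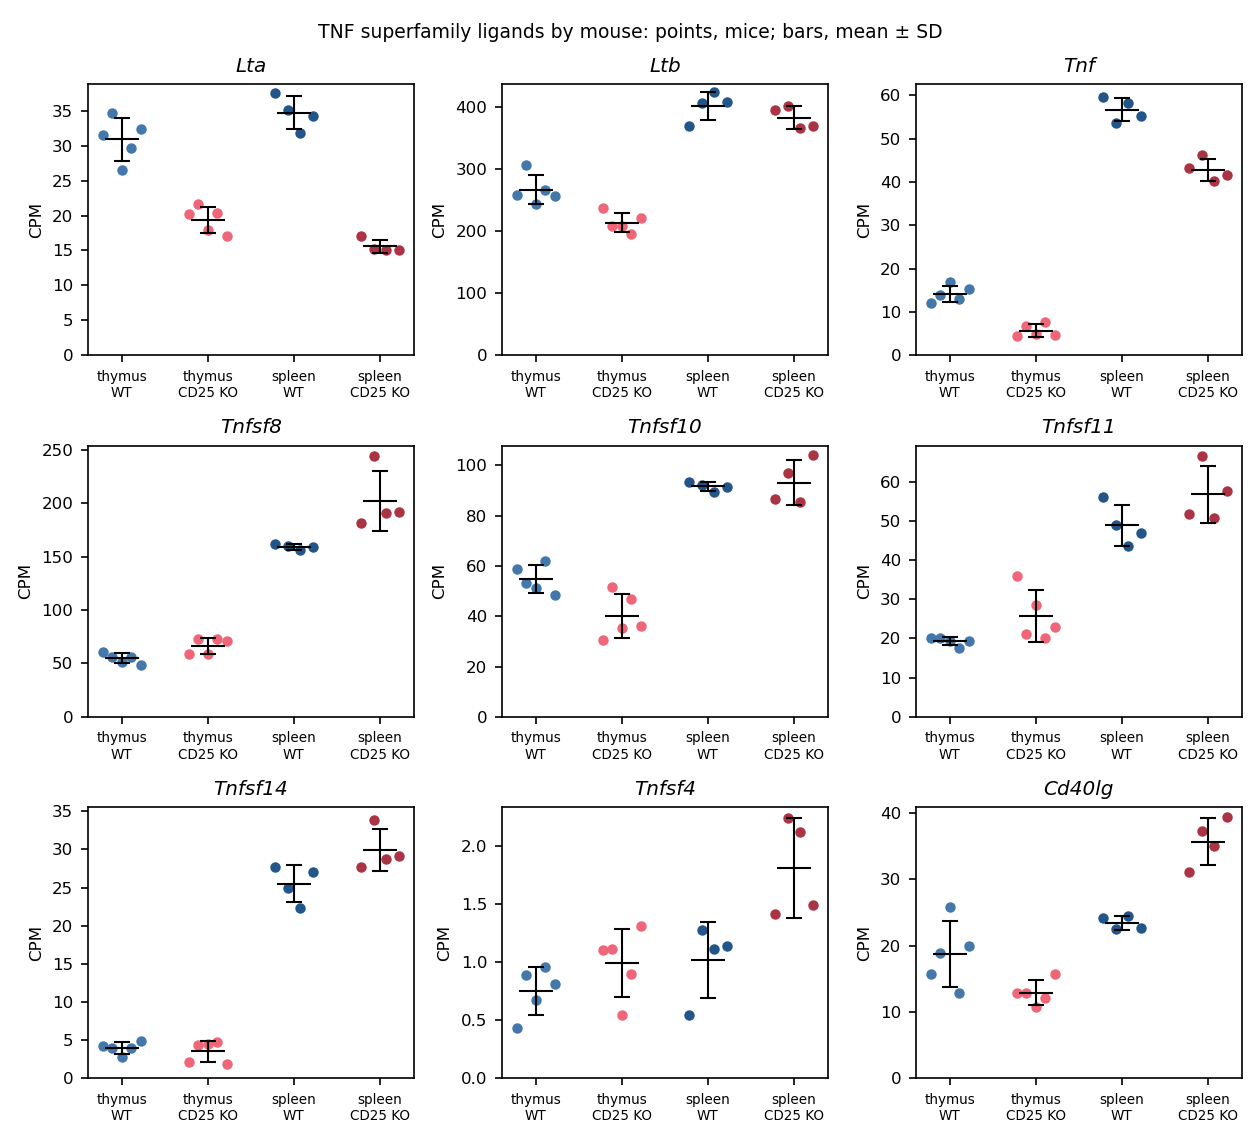
Expression of each TNF superfamily ligand (CPM, vertical axis from 0) in each mouse of the 4 groups; points are mice and bars the mean ± SD (n = 5 per thymic and 4 per splenic group). Lta and Tnf are lower in every CD25 KO mouse than in every WT mouse of the same tissue, and Cd40lg is higher in every splenic KO mouse.

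Lta fell in both tissues, as the paper on these mice already reports from the same libraries. Its level in thymic WT mice 1 to 5 was 31.5, 34.6, 26.5, 29.7 and 32.4 CPM, and in KO mice 20.2, 21.6, 18, 20.3 and 17 CPM. Every KO mouse lay below every WT mouse. The log2 fold change was -0.66 (SE 0.0864, edgeR adjusted p = 0.00102), leaving 63.5% of the WT level. In the spleen Lta was 37.6, 35.1, 31.8 and 34.2 CPM in WT mice and 17, 15.2, 15.1 and 15.1 CPM in KO mice. The groups were again apart, by a wider gap, and KO mouse 1 stood above the other KO mice. The splenic log2 fold change was -1.15 (SE 0.0731, edgeR adjusted p = 1.19e-07), to 45.1% of WT. The decline was larger in the spleen by 0.48 on the log2 scale (interaction -0.48, SE 0.118, edgeR adjusted p = 0.00963). That last p lies just under the threshold and passed it in 9 of 25 alternative analyses, the range of adjusted p being 0.00196 to 0.0248 at differences of -0.55 to -0.40. Leaving out any of 13 of the 18 mice, controls among them, moved it past 0.01, up to 0.0248 without splenic WT mouse 1.

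Tnf also fell in both tissues, with the order of the tissues turned round. Thymic WT mice had 12.0, 13.9, 16.8, 13.1 and 15.2 CPM, and KO mice 4.35, 6.86, 5.01, 7.79 and 4.62 CPM. The groups did not overlap, and the 2 highest KO values belonged to mice 2 and 4, which also kept the most Il2ra. The log2 fold change was -1.29 (SE 0.169, edgeR adjusted p = 0.00100), to 40.9% of WT, and -1.60 (adjusted p = 3.5e-05) without those 2 mice. In the spleen Tnf was 59.7, 53.7, 58.3 and 55.2 CPM in WT mice and 43.2, 46.3, 40.3 and 41.5 CPM in KO mice, a log2 fold change of -0.40 (SE 0.0598, edgeR adjusted p = 0.00022) to 75.5% of WT. Every splenic KO mouse was thus below every WT mouse, yet well above any thymic mouse. The difference of the effects was 0.90 (SE 0.179, edgeR adjusted p = 0.00208) and passed the threshold in 25 of 25 alternatives.

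Ltb, the membrane partner of Lta and the most abundant of the ligands, moved little. In the thymus it was 259, 306, 244, 266 and 257 CPM in WT mice and 237, 208, 209, 196 and 221 CPM in KO mice. The groups were apart but close. The log2 fold change was -0.30 (SE 0.0646, edgeR adjusted p = 0.00938), to 81.4% of WT. This call lay at the edge of the threshold: it held in 4 of 20 alternatives and was lost whichever 1 of the 10 mice was left out (log2 fold changes -0.33 to -0.24, adjusted p 0.0116 to 0.0260). With the GC trend of each library removed the log2 fold change was -0.18 (adjusted p = 0.115). Ltb has an exonic GC content of 62.0%, against a median of 49.3% over genes tested, and thymic fold changes fell with GC content (Spearman's rho -0.41 across 16945 genes, which are not independent replicates). In the spleen Ltb was 369, 406, 424 and 409 CPM in WT mice and 396, 402, 366 and 370 CPM in KO mice. These groups overlapped, and the log2 fold change was -0.07 (95% interval -0.18 to 0.05, edgeR adjusted p = 0.456). The difference between tissues was 0.25 (SE 0.0939, edgeR adjusted p = 0.0757) and did not pass.

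The ratios between the 3 neighbours were also taken in each mouse. Scaled to exon length, the level of Ltb was 7.88 ± 0.484 times that of Lta in thymic WT mice and 10.2 ± 1.34 times in thymic KO mice (SD, n = 5). In the spleen the same ratio was 10.6 ± 1.29 in WT and 22.4 ± 1.17 in KO mice (SD, n = 4). Splenic KO Tregs thus held far more Ltb per Lta transcript than any other group, with the lowest KO mouse at 21.2 and the highest WT mouse at 12.1. For Tnf per Lta, the ratio was 0.393 ± 0.0845 in thymic WT, 0.248 ± 0.0527 in thymic KO, 1.38 ± 0.114 in splenic WT and 2.32 ± 0.178 in splenic KO mice. The thymic groups overlapped, with the highest KO mouse at 0.324 and the lowest WT mouse at 0.322, while all splenic KO mice lay above all splenic WT mice. No ratio was tested.

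Among genes around the cluster, edgeR gave no further call at an FDR under 0.01. Of 10 neighbours listed by name, such as Nfkbil1, Lst1, Aif1 and Bag6, 0 passed an FDR under 0.01 in either tissue. At an unadjusted p under 0.05, 4 were lower in the thymus, and 1 was lower and 1 higher in the spleen. DESeq2 called 2 lower in the thymus, where it called 1246 of 16986 genes lower, and 0 in the spleen. Their median log2 fold change was -0.11 for thymic and -0.06 for splenic Tregs. Counting all genes in the plotted stretch, the edgeR calls were 3 of 24 genes tested for the thymus and 2 of 25 for the spleen, each of them Lta, Tnf or, in the thymus, Ltb. Others stood close to the threshold on the lower side: Apom at -0.60 in the thymus (edgeR adjusted p = 0.0178) and -0.48 in the spleen (0.0231), Prrc2a at -0.25 and Csnk2b at -0.26 in the thymus (0.0183 and 0.0221), and Ncr3-ps at -1.05 in the spleen (0.0293). The cluster was not tested against its neighbours, and these genes were named after their values were seen.

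**Figure D2:**
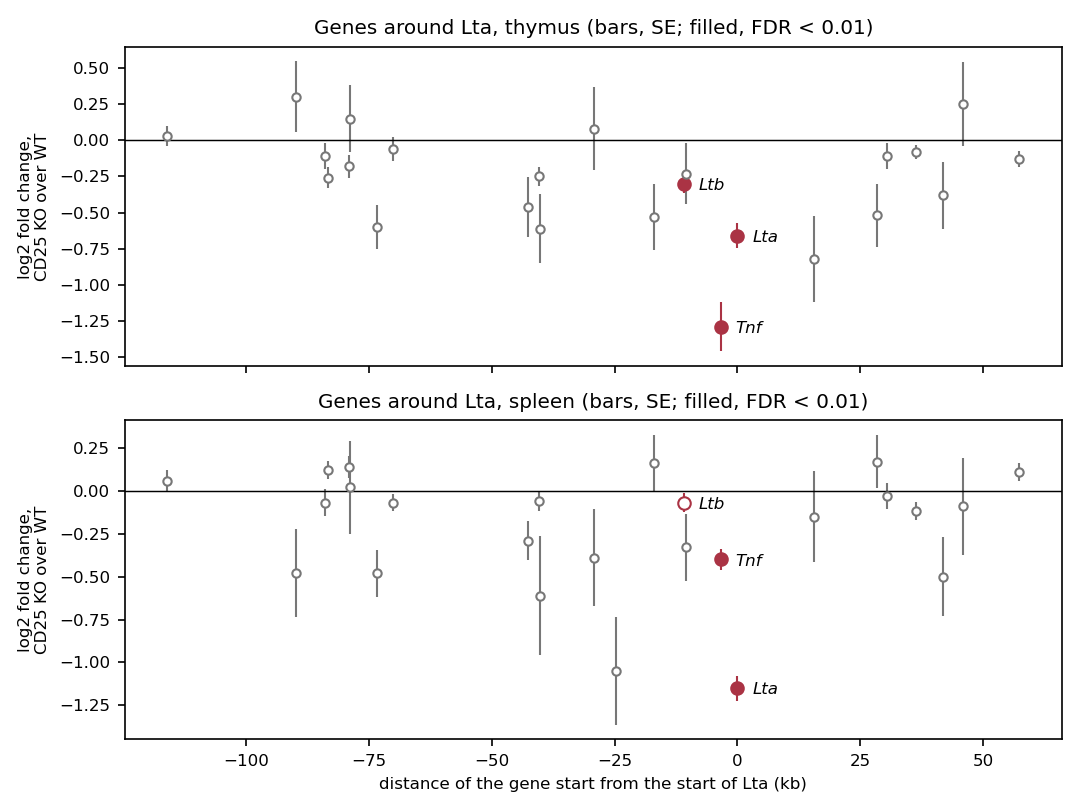
Log2 fold change of CD25 KO over WT (vertical axis, bars are SE) for genes around Lta against the distance of their start from the start of Lta in kb, thymus above and spleen below; filled points have an FDR under 0.01. Filled points are Ltb, Tnf and Lta in the thymus and Tnf and Lta in the spleen, with Tnf lowest of the 3 in the thymus (-1.29) and Lta lowest in the spleen (-1.15).

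Cd40lg, the ligand by which T cells license B cells and dendritic cells, rose in the spleen. Splenic WT mice had 24.2, 22.5, 24.5 and 22.6 CPM, and KO mice 31.1, 37.3, 35.1 and 39.4 CPM. Every KO mouse was above every WT mouse. The log2 fold change was 0.61 (SE 0.0750, edgeR adjusted p = 4.04e-05), 1.53-fold. Thymic WT mice had 15.7, 18.9, 25.9, 12.8 and 20 CPM, and KO mice 12.8, 12.9, 10.7, 12.1 and 15.8 CPM. These groups overlapped, with the widest spread in WT mice, and the log2 fold change of -0.52 (SE 0.167, edgeR adjusted p = 0.0411) did not pass. The interaction itself did: 1.15 (SE 0.203, edgeR adjusted p = 0.000783), in 25 of 25 alternatives. Of the 9 ligands, the test of the difference thus called 1 lower in the spleen relative to the thymus (Lta; 2.49% of all genes at an FDR under 0.01 and 7.03% under 0.05) and 2 higher (Tnf and Cd40lg; 4.5% and 9.82%), and the counts were alike at both thresholds.

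Tnfsf8 rose in the spleen. WT mice stood at 162, 160, 156 and 159 CPM and KO mice at 182, 244, 191 and 192 CPM. All KO mice were above all WT mice, mouse 2 by the most. The log2 fold change was 0.35 (SE 0.0747, edgeR adjusted p = 0.00398), 1.27-fold. The call was lost without WT mouse 2, 3 or 4 (adjusted p = 0.0131, 0.0168 and 0.0147) and with the GC trend removed (log2 fold change 0.25, adjusted p = 0.0493); the exonic GC content of Tnfsf8 is 42.6%. In the thymus Tnfsf8 was 61.1, 56.1, 51.3, 56.3 and 49.0 CPM in WT mice and 58.4, 73.0, 59.0, 72.5 and 70.7 CPM in KO mice. The groups overlapped, and the log2 fold change of 0.30 (SE 0.0876, edgeR adjusted p = 0.0283) became 0.07 with the GC trend removed. The effects in the tissues differed by 0.06 (95% interval -0.19 to 0.32, edgeR adjusted p = 0.763).

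Tnfsf10 and Tnfsf11 changed in the thymus by amounts that did not pass an FDR under 0.01. Tnfsf10 was 58.7, 53.1, 51.4, 62.1 and 48.4 CPM in thymic WT mice and 30.5, 51.7, 35.5, 47.0 and 36.0 CPM in KO mice (log2 fold change -0.43, SE 0.136, edgeR adjusted p = 0.0400). Tnfsf11 was 20.1, 20.2, 19.3, 17.5 and 19.3 CPM in WT mice and 35.9, 21.2, 28.4, 20.2 and 22.9 CPM in KO mice (log2 fold change 0.43, SE 0.136, edgeR adjusted p = 0.0399). For both genes KO mice 2 and 4, those with the most Il2ra, were the nearest to the WT mean. For Tnfsf8 (73.0 and 72.5 CPM) and Ltb (208 and 196 CPM) the same 2 mice were instead the farthest from it. A relation to the Il2ra level was not tested. Without these 2 mice Tnfsf10 was at -0.68 (adjusted p = 0.000898) and Tnfsf11 at 0.60 (adjusted p = 0.00464). The share of all genes called was then 11.5%, against 6.16% with all 10 mice. Tnfsf8 was at 0.20 (edgeR adjusted p = 0.122) and Ltb at -0.25 (edgeR adjusted p = 0.0303) without them. With the GC trend removed and all mice kept, Tnfsf11 was at 0.28 (edgeR adjusted p = 0.164) and Tnfsf10 at -0.58 (edgeR adjusted p = 0.0154). In the spleen Tnfsf10 lay at 89.4 to 93.3 CPM in WT and 85.3 to 104 CPM in KO mice, a log2 fold change of 0.03 (95% interval -0.11 to 0.16), and Tnfsf11 at 43.5 to 56.0 and 50.6 to 66.6 CPM, a log2 fold change of 0.22 (edgeR adjusted p = 0.112). For Tnfsf10 the effects in the tissues differed by 0.47 (SE 0.162, edgeR adjusted p = 0.0518), which passed without thymic KO mouse 2 (0.58, adjusted p = 0.00948).

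Tnfsf14 showed no change that passed in either tissue. It ranged from 2.83 to 4.91 CPM in thymic WT and from 1.84 to 4.73 CPM in KO mice, and from 22.3 to 27.7 CPM in splenic WT and from 27.7 to 33.9 CPM in KO mice. The log2 fold changes were -0.16 (95% interval -0.72 to 0.41) and 0.23 (95% interval 0.05 to 0.40, edgeR adjusted p = 0.0725). Tnfsf4 was the scarcest ligand, near the floor in some libraries, with 9 to 25 counts per thymic library. In the spleen it was 0.542, 1.28, 1.11 and 1.14 CPM in WT mice and 1.41, 2.24, 2.12 and 1.49 CPM in KO mice. All splenic KO mice were above all WT mice, at a log2 fold change of 0.83 (SE 0.262) whose edgeR adjusted p of 0.0404 did not pass. Over the 9 ligands, WT and KO groups did not overlap for 3 in the thymus (16.4% of all genes) and for 5 in the spleen (20.4% of all genes), the fifth in the spleen being Tnfsf4.

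**Figure D3:**
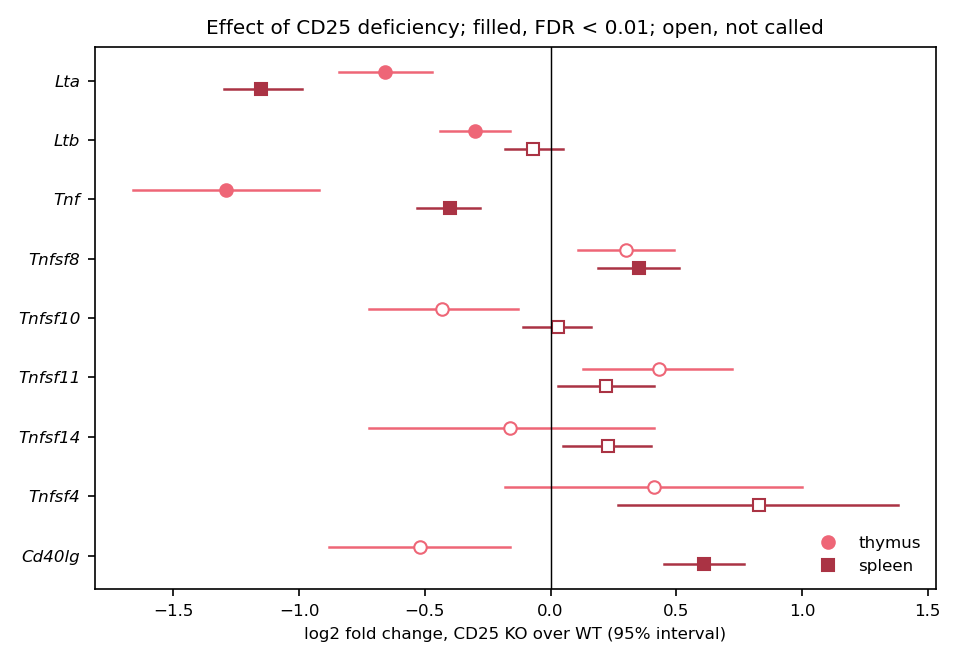
Log2 fold change of CD25 KO over WT for each ligand with its 95% interval (horizontal axis), circles for thymus and squares for spleen; filled symbols have an FDR under 0.01. Lta and Tnf are filled on the lower side in both tissues, Ltb in the thymus, and Cd40lg and Tnfsf8 on the higher side in the spleen.

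Both tissues were also fitted together, with 1 spread shared by all 18 libraries. There the splenic calls shrank to Lta, although the fold changes stayed close to those above: Cd40lg had an adjusted p of 0.0117, Tnfsf8 of 0.0179 and Tnf of 0.0428. The thymic calls grew to 5 with Tnfsf10 (adjusted p = 0.00547) and Cd40lg (adjusted p = 0.00716).

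Among WT mice, splenic Tregs expressed more of most ligands than thymic Tregs. At an FDR under 0.01, 6 of the 9 were higher in the spleen, where 21% of all genes were higher, and 0 were lower, where 19.5% were lower (0 lower at an unadjusted p under 0.05 and 0 by DESeq2). Tnfsf14 differed most, 6.4-fold, followed by Tnf at 3.99-fold, Tnfsf8 at 2.90-fold, Tnfsf11 at 2.53-fold, Tnfsf10 at 1.67-fold and Ltb at 1.51-fold. Lta (1.12-fold, edgeR adjusted p = 0.1), Cd40lg (1.25-fold, edgeR adjusted p = 0.0603) and Tnfsf4 (1.34-fold, edgeR adjusted p = 0.227) did not pass. Cd40lg passed without thymic WT mouse 3, its highest value in the thymus (log2 fold change 0.44, adjusted p = 0.0061). Of the 3 clustered genes, Ltb and Tnf thus differed between WT tissues and Lta did not pass.

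Set against exon length, Ltb stood far above the rest in every group, at 176 ± 15.4 CPM per kb in thymic WT and 265 ± 15.2 in splenic WT mice (SD). In thymic WT mice the order below it was Lta (22.4 CPM per kb), Cd40lg (14.9), Tnfsf8 (14.4), Tnfsf10 (10.4), Tnf (8.67), Tnfsf11 (8.62), Tnfsf14 (2.16) and Tnfsf4 (0.409). Lta overlapped with Cd40lg over mice, Cd40lg with Tnfsf8, Tnfsf10 with Tnf and Tnf with Tnfsf11. Tnfsf14 and Tnfsf4 stood clear of their neighbours. In thymic KO mice Tnfsf8 (17.5) came next to Ltb and ahead of Lta (14.0), which it overlapped, then Tnfsf11 (11.5), Cd40lg (10.3), Tnfsf10 (7.62) and Tnf (3.49); of these only Tnf was separate from both neighbours.

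In splenic WT mice the levels ran from Tnfsf8 (41.7 CPM per kb) through Tnf (34.6), Lta (25.1), Tnfsf11 (21.8), Cd40lg (18.7), Tnfsf10 (17.4) and Tnfsf14 (13.8) to Tnfsf4 (0.554), with overlap between Lta and Tnfsf11 and between Tnfsf11 and Cd40lg. CD25 KO reordered them. Lta went from rank 4 to rank 8 (11.3 CPM per kb), below and separate from Tnfsf14 (16.2), and Cd40lg from rank 6 to rank 3 (28.6), overlapping with Tnf (26.1), which in turn overlapped with Tnfsf11 (25.3). Tnfsf8 (53.2) kept rank 2.

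**Figure D4:**
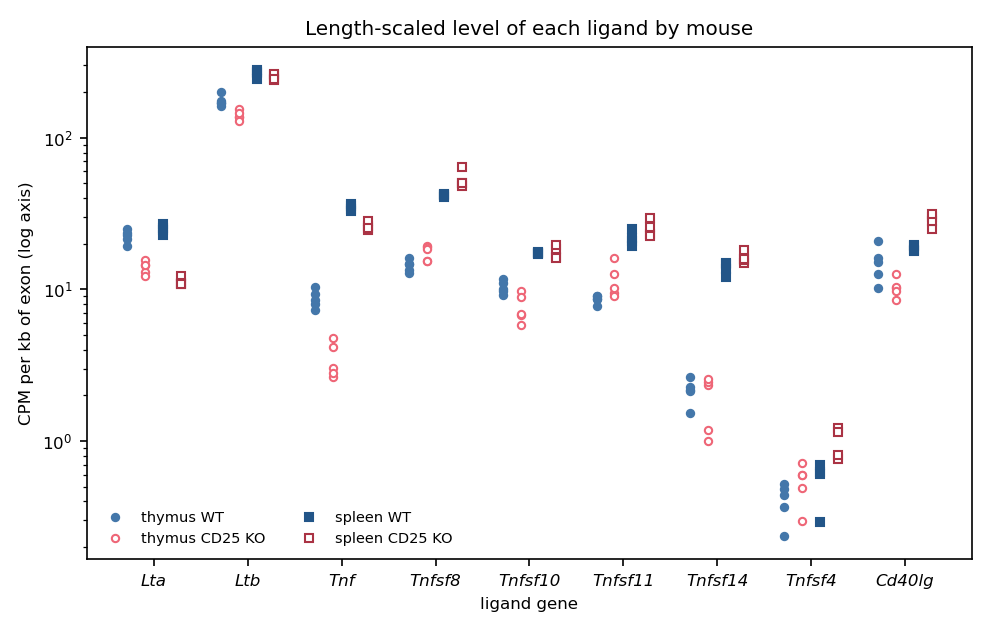
Level of each ligand in each mouse, in CPM per kb of exon on a log axis; circles are thymus and squares spleen, filled WT and open CD25 KO. Ltb lies above 100 in every mouse and Tnfsf4 is the lowest ligand in every group, while splenic KO mice have Lta at 10.9 to 12.3, below their Tnfsf14.

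Most other ligands of the superfamily did not pass the count filter. Of 9, 3 passed the count filter for thymic libraries and 4 for splenic ones (median log2 fold changes -0.21 and 0.27). A single gene was called: Tnfsf13b, which encodes the B cell survival factor BAFF and rose in the spleen from 5.52 ± 1.01 to 8.51 ± 0.875 CPM (SD, n = 4; log2 fold change 0.62, edgeR adjusted p = 0.00426). In the thymus 0 passed, 1 was lower at an unadjusted p under 0.05 and DESeq2 called 0. With so few genes tested, the edgeR counts are near the shares of all genes called, 6.16% (thymus) and 9.45% (spleen). Fasl was 7.76 to 11 CPM in splenic and 0.65 to 1.5 CPM in thymic mice, and Tnfsf12, Tnfsf13 and Tnfsf18 stayed near or below the floor.

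Of 12 receptors for the 9 ligands, 2 of 9 tested fell in the thymus and 0 rose. Over all genes 2.99% fell there and 3.17% rose. Tnfrsf4, the OX40 receptor of Tnfsf4 and a marker of Treg precursors, went from 250 ± 31.7 to 170 ± 10.6 CPM (log2 fold change -0.55, edgeR adjusted p = 0.00216), and Tnfrsf10b, the TRAIL receptor, from 6.10 ± 0.382 to 4.24 ± 0.366 CPM (-0.51, edgeR adjusted p = 0.00807). In the spleen 0 of 11 passed, which is near the 9.45% of all genes that did. At an unadjusted p under 0.05, 2 were lower and 4 higher there. DESeq2 called 3 lower in the thymus (1246 of 16986 genes) and 2 higher in the spleen (1315 of 17463 genes). Tnfrsf1b, the TNF receptor typical of Tregs, stood at 320 to 383 CPM in WT and 380 to 429 CPM in KO mice of the spleen. Over the receptors the median log2 fold change was -0.29 for the thymus and 0.14 for the spleen. Ltbr stayed under 1 CPM in every library, as it does in lymphocytes, which present lymphotoxin to other cells.

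In the signalling list of TRAF adaptors and the alternative NF-kB pathway, 2 of 16 fell in the thymus, Ripk1 (log2 fold change -0.48) and Traf6 (-0.27), and 3 of 15 rose in the spleen: Tnfaip3, the A20 feedback inhibitor of NF-kB (0.58, edgeR adjusted p = 0.00032), and the alternative-pathway subunits Nfkb2 (0.37) and Relb (0.26). Over all genes 2.99% fell in the thymus and 5.9% rose in the spleen. Tnfaip3 stood at 1.01 in the thymus, just short of the threshold (edgeR adjusted p = 0.0108), and DESeq2 called 2 genes of the list higher there. Of genes for ligand shedding and for decay of cytokine transcripts, 2 of 11 passed in the thymus and 1 of 11 in the spleen, where 6.16% and 9.45% of all genes passed in either direction. Zc3h12d, a ribonuclease of the Regnase family, moved in opposite directions, by -0.38 (thymus) and 0.30 (spleen), and Rc3h2, encoding Roquin-2, rose in the thymus by 0.47. The median log2 fold changes, thymus then spleen, were -0.08 and 0.06 for the signalling list and 0.05 and 0.10 for shedding and decay.

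Of 10 IL-2 and STAT5 response genes, 7 fell and 0 rose in each tissue. Over all genes 2.99% fell and 3.17% rose in the thymus, and 3.55% fell and 5.9% rose in the spleen. The list had median log2 fold changes of -0.88 (thymus) and -0.56 (spleen). At an unadjusted p under 0.05, 1 was higher in the spleen and 0 in the thymus, and DESeq2 called 0 higher. This list was written with earlier results of these data known. It holds genes that the paper gives as lower in these cells, such as Myc, Cish, Socs1 and Socs2, named there together with Lta. Its falls are therefore no separate measure of the lost receptor signal. Il2ra itself is one of the 10. Myc, the growth regulator, fell by 0.96 on the log2 scale in the thymus and by 1.02 in the spleen, and Bcl2, an inhibitor of apoptosis, fell by 1.01 in the spleen but stood at 0.01 in the thymus (edgeR adjusted p = 0.926; interaction -1, SE 0.0968, edgeR adjusted p = 1.38e-06). Socs2, a feedback inhibitor induced by STAT5, fell furthest in the thymus, with a log2 fold change of -3.20. Myc was also one of the 2 genes, with Cnksr3, whose profile over the 18 mice was most like that of Lta. The root mean square difference of their centred log2 CPM profiles from that of Lta was 0.202 for Myc and 0.174 for Cnksr3, against an SD of 0.484 for Lta, among 11125 genes compared.

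Nearest to Tnf were Ass1 (0.204) and Thy1 (0.246), at an SD of 1.38 for Tnf, and nearest to Ltb were Tap2 (0.0780) and Bahd1 (0.0880). Cd40lg lay closest to Icos (0.191), a costimulatory receptor of effector Tregs and helper cells, and Fkbp5 (0.195). Zrsr1 appeared for both Tnfsf8 (0.166), after Arhgap26 (0.147), and Tnfsf11 (0.187), after Ehd3 (0.169). For Tnfsf10 the genes were Fam124b (0.130) and Cd48 (0.143), for Tnfsf14 Gprin3 (0.284) and Plscr1 (0.297), and for Tnfsf4 Tgtp2 (0.370) and Rasgef1a (0.378). These profiles span both tissues and both genotypes, so a likeness over the 18 libraries includes the difference between tissues.

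Marker genes of Treg states also moved with genotype. Over all genes 2.99% fell and 3.17% rose in the thymus, and 3.55% fell and 5.9% rose in the spleen. A count of 1 gene in a list below is near those shares. Of 12 effector or recirculating Treg markers, 7 were lower in thymic KO mice, where their sum was 203 to 329 CPM against 348 to 428 CPM in WT mice, and 10 were higher and 1 lower in splenic KO mice, with sums of 1500 to 1730 against 917 to 1100 CPM. Gzmb rose by 3.41 on the log2 scale in the spleen, and Tigit fell by 2.58 in the thymus and rose by 1.28 in the spleen. The list thus moved the same way as Tnf and Lta in the thymus, opposite to them in the spleen, and the same way as Cd40lg in the spleen. It includes Icos, one of the genes nearest to Cd40lg. In the thymus its sum was highest among KO mice in mice 2 and 4, at 328 and 329 CPM, the mice with the highest Tnf. Of 9 T cell activation markers 1, Irf4, which the effector list also holds, fell in the thymus and 4 rose in the spleen, where their sum was 1130 to 1240 CPM in WT and 1240 to 1520 CPM in KO mice. Of 8 central Treg markers, 1 fell in the thymus, and 3 fell and 1 rose in the spleen. Of 8 markers of Tregs as a whole, 4 fell and 0 rose in the thymus, where DESeq2 called 1 higher. In the spleen 3 of them fell (Lrrc32, Foxp3 and Ikzf4) and 3 rose (Ikzf2, Cd4 and Cd3e). The part of these shifts in the ligand results was not tested.

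Markers of other cells were mostly low. B cell markers summed to 107 to 136 CPM in thymic WT and 59.4 to 77.6 CPM in KO mice, and to 433 to 539 and 588 to 710 CPM in the spleen, most of it Ighm, which fell in the thymus and rose in the spleen. Pax5 also rose in the spleen, whereas Cd79a stood at -0.45 there (edgeR adjusted p = 0.032, not called) and Cd79b at 0.02. Ms4a1, which encodes the B cell surface protein CD20, averaged 0.301 CPM or less in every group. Myeloid and dendritic cell markers summed to 7.81 to 44.6 CPM over thymic mice and 11 to 22.3 CPM over splenic mice, with Lyz2 called higher in splenic KO mice, Csf1r at -0.24 and Adgre1 at -0.82 not called, and a median log2 fold change of -0.24 over these 3. Sums were 5.59 to 13.7 and 11.9 to 23.0 CPM for NK and innate lymphoid markers, where the defining Ncr1 was at the floor in every group and Klrb1c was higher in splenic KO mice. CD8 T cell markers summed to 22.4 to 56.1 CPM over thymic and 11 to 23.2 CPM over splenic mice, and immature thymocyte markers to 37.3 to 170 CPM in the thymus; Rag1, Rag2 and Ptcra were at the floor in the spleen. Erythroid markers summed to 8.45 to 44.5 CPM over thymic and 4.98 to 7.2 CPM over splenic mice, and thymic stroma markers to 6.45 to 11.7 and 6.63 to 12.8 CPM. Of these 4 lists edgeR and DESeq2 called 0 genes in either tissue. With so few genes tested that is near the share of all genes that edgeR called, 6.16% in the thymus and 9.45% in the spleen. At an unadjusted p under 0.05, 1 erythroid marker was higher in the thymus, and in the spleen 2 CD8 T cell markers and 1 stroma marker were higher and 1 thymocyte marker lower. Their part in the ligand results was not tested.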

How the data were processed

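RNA-seq was measured in Tregs sorted by FACS from 18 mice (5 WT and 5 CD25 KO thymuses, 4 WT and 4 CD25 KO spleens). Per the labels, libraries were made with the KAPA RNA Hyperprep with RiboErase kit. The deposited table holds raw counts per Ensembl gene, which the authors made with STAR 2.5.0b on GRCm38 and featureCounts 1.5.0 with GENCODE M13; settings for strand and multiply mapped reads are not given in the sources used here, so reads of genes that overlap on opposite strands could be mixed. Symbols and exon lengths came from GENCODE M21, which gave a symbol to 50376 of 50600 identifiers.

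The main test was edgeR 4.0.16 (R 4.3.3): genes passing filterByExpr, TMM scaling, a quasi-likelihood F test within each tissue, Benjamini-Hochberg adjustment over all genes tested and an FDR threshold of 0.01. The difference between tissues (splenic minus thymic log2 fold change) and WT spleen against WT thymus came from a fit over all 18 libraries. SE was the absolute log2 fold change divided by the root of F. CPM used total counts times TMM factors over 18 libraries. Steps were tested on simulated counts. The samples are separate mice per the series design; no pair of libraries within a group agreed within sampling noise (chi-square per gene 3.77 to 48.4 over 32 pairs). Depth limits the precision of Tnfsf4 most, which had the fewest counts in every group.

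Alternatives were RLE and upper-quartile scaling, DESeq2 1.42.0, no count filter, at least 10 counts in every library, FDR under 0.05, a GC offset (lowess span 0.3), a replicate block, other sets of libraries and leaving out each mouse. The ligands, the other lists and the markers were chosen with earlier results of these data known. Named were all 9 ligands, up to 3 called genes with the largest fold in each direction of a list and tissue, and for each ligand the 2 genes of average log2 CPM of 2 or more with the nearest profile; list members named for levels alone were chosen after their values were seen.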

Additional observations from a re-analysis of the deposited data

Results flagged for a closer look

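In 2 of the 36 groups tested, 1 mouse of a group stood apart by Dixon's test, which chance alone gives for about 1 in 20 groups. Splenic KO mouse 1 had Lta at 17 CPM, above 15.1 to 15.2 CPM in the other 3 KO mice, and still below every WT mouse. Splenic KO mouse 2 had Tnfsf8 at 244 CPM, against 182 to 192 CPM in the others.

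The effect of CD25 deficiency differed between tissues, by the interaction term, for 3 ligands. The splenic log2 fold change minus the thymic one was -0.48 for Lta, 0.90 for Tnf and 1.15 for Cd40lg, with edgeR adjusted p of 0.00963, 0.00208 and 0.000783. In all 4 splenic KO mice Cd40lg was above all WT mice, whereas thymic groups overlapped. Tissue, KO model with its splenocyte transfer, age, tamoxifen and the date in the column headers cannot be told apart in these differences.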

How the results depend on the processing

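Of 762 alternative values over 36 results, 709 kept their direction and side of the threshold, 39 lost a call, 8 gained one and 6 turned direction. Thymic calls of Lta and Tnf held in 20 of 20 alternatives, the splenic call of Lta in 15 of 15, and those of splenic Tnf and Cd40lg in 14 of 15 each. The number of ligands called in the thymus was 3, 7 at an FDR under 0.05, 5 in the fit of all 18 libraries, and 2 whichever mouse was left out; in the spleen it was 4, 1 in the fit of all 18, and 3 to 4 without a mouse. Leaving out a mouse gave 2 to 3 calls for the difference of effects and 6 to 7 between WT tissues. Direction turned only for values that did not pass: Tnfsf10 in the spleen was -0.01 with upper-quartile scaling and -0.06 with the GC trend removed (-0.03 to 0.07 without a mouse), the Tnfsf8 difference was -0.02 with upper-quartile scaling (-0.05 to 0.10 without a mouse), and Tnfsf14 in the thymus was -0.29 to 0.01 without a mouse. The cause was not tested.

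Over all genes, thymic calls numbered 508 lower and 539 higher, 440 and 808 with upper-quartile scaling, 535 and 222 with the GC trend removed, 1246 and 1517 by DESeq2, 1858 and 2093 at an FDR under 0.05, 1585 and 1296 in the fit of all 18, and 1232 and 776 without KO mice 2 and 4; called genes made up 6.16% of those tested, and 2.16% to 2.49% without WT mouse 2, 3 or 5 or KO mouse 1 or 3. Splenic calls numbered 620 and 1031, 769 and 920 with upper-quartile scaling, 1227 and 1774 at an FDR under 0.05, and 371 and 424 in the fit of all 18 (9.45% of genes, and 6.19% without WT mouse 3). For the difference they were 465 and 840, 669 and 616 with upper-quartile scaling, 820 and 1368 by DESeq2, 1314 and 1835 at an FDR under 0.05, and 770 and 1537 without thymic KO mice 2 and 4 (6.98%, and 4.31% without splenic KO mouse 2). Nothing in the labels says that thymic mouse numbers pair the samples. Correlations of same-numbered mice were -0.24 to 0.14, and 2 of 10 mice were closest to their own number. With so few mice these values cannot settle whether samples were paired. With the number as a replicate block, 158 genes were lower and 51 higher in the thymus, and 204 and 45 with the GC trend also removed; both fits called 2 ligands, Lta and Tnf. Ltb was lost (adjusted p = 0.0315 with the block), and the block changed no other call of a ligand.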
